A study of Mus musculus with 48 samples.

Results

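The genes described here are 10 genes by which macrophages take up heme, break it down, store its iron, and release it: Slc48a1, Hmox1, Blvra, Blvrb, Slc11a1, Slc11a2, Slc40a1, Fth1, Ftl1, and Tfrc. They were chosen by name, and each of the 10 was found as 1 row among the 54735 genes that every count file lists. Counts came from RNA-seq of cells sorted from the spleens of male Balb/c mice, 10 weeks old, that were either wild type (WT) or carried the label Il1rl1-/-, a knockout of the receptor for the cytokine IL-33. Each genotype had 4 mice, and each mouse gave 1 library of monocytes (sorted as Ly6Glo CD11bhi F4/80-), 1 of pre-RPMs (Ly6Glo CD11bhi F4/80lo), and 1 of red pulp macrophages (RPMs, Ly6Glo CD11blo/- F4/80hi), so that 24 libraries in 6 groups were compared. No mouse was treated, and the groups share strain, sex, and age. The 24 chromatin accessibility samples of the study were not analysed here.

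RPMs are the macrophages of the spleen that engulf old red blood cells. Hemoglobin is digested in the phagosome, heme is carried into the cytosol and opened by heme oxygenase, and the iron that is freed is either stored in ferritin or exported to the blood through ferroportin, which supplies most of the iron used for new red blood cells. Pre-RPMs are thought to be the intermediate between splenic monocytes and RPMs. Much of the control of these genes acts after transcription. Under low iron, the iron regulatory proteins, encoded by Aco1 and Ireb2, bind a small RNA hairpin, the iron-responsive element. An element in the 5′ UTR blocks translation, and elements in the 3′ UTR protect the transcript from decay. Read counts measure transcripts and not protein.

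Since this hairpin is the known control element of ferritin, ferroportin, and the transferrin receptor, its sequences are shown first. Protein-coding transcripts of the GENCODE basic set (GRCm38) were searched in their UTRs. The pattern was a C, 5 bases, the loop CAGTGN, and 5 bases that pair with the first 5, with G to T pairs allowed. Capitals mark the 6 bases of the loop, and each sequence of 17 bases is printed 5′ to 3′ on the strand of its gene.
Fth1, 5′ UTR, chr19:9982738-9982754, plus strand: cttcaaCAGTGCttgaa
Ftl1, 5′ UTR, chr7:45459785-45459801, minus strand: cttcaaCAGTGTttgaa
Slc40a1, 5′ UTR, chr1:45925471-45925487, minus strand: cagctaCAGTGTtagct
Tfrc, 3′ UTR, chr16:32631225-32631241, plus strand: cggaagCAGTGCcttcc
Tfrc, 3′ UTR, chr16:32631604-32631620, plus strand: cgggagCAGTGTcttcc
Tfrc, 3′ UTR, chr16:32631669-32631685, plus strand: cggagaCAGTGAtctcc
Tfrc, 3′ UTR, chr16:32631716-32631732, plus strand: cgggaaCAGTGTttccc
A match in the 5′ UTR was found for 3 of the 10 members, against 28 of 21875 genes searched (0.128%). A match in the 3′ UTR was found for 1 of the 10, against 127 genes (0.581%). No match was found for the other 6 members, Hmox1, Slc48a1, Slc11a1, Slc11a2, Blvra, and Blvrb. All 5 bases had to pair, so a hairpin with an unpaired base in that stem is missed. A gene without a match may therefore still hold an element. The stems of Fth1 and Ftl1 are the same, and only the last base of the loop differs.

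Library totals ranged from 3562367 to 6559454 counts (median 4728764), so that 3 counts, taken as not told apart from 0, correspond to between 0.457 and 0.842 CPM. CPM, the unit of all levels here, is the count relative to the library total, with totals scaled over the 24 libraries (TMM). No replicates were identical or differed by less than sampling noise. The labelled cell types were checked against markers fixed for each. The summed level of 11 RPM markers, such as Spic, Vcam1, and Mertk, was between 38.4 and 125 CPM in monocytes, between 142 and 294 CPM in pre-RPMs, and between 5275 and 6893 CPM in RPMs. That of 8 monocyte markers was between 553 and 1334 CPM in monocytes, 1135 and 1451 CPM in pre-RPMs, and 8.33 and 60.7 CPM in RPMs. These markers thus set RPMs apart but did not place monocytes above pre-RPMs. In monocytes, their median sums were 881 CPM in WT and 1022 CPM in the libraries labelled Il1rl1-/-. The median sums of 10 neutrophil markers there were 1640 and 1872 CPM, and those of 7 NK cell markers 1251 and 931 CPM. The part of other cells in the monocyte libraries was not tested. The genotype labels could not be checked by counts of Il1rl1, since counts over a whole gene do not show whether its product was lost. In monocytes of mice 1, 2, 3, and 4, Il1rl1 had 28, 19, 12, and 13 counts in WT and 51, 73, 71, and 64 counts in the libraries labelled Il1rl1-/-, against the direction of a knockout, and pre-RPMs showed the same direction. In RPMs, Il1rl1 had 5, 9, 7, and 13 counts in WT and 1, 7, 3, and 6 counts in those labelled Il1rl1-/-. Which exons these reads came from was not analysed here, and all genotypes below are those of the labels.

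All 10 members were higher in RPMs than in pre-RPMs, both in WT mice and in mice labelled Il1rl1-/-, with no overlap between the 4 libraries of each group. They thus rose together at the last step between cell types, from 2.73-fold for Slc11a2 to 100-fold for Slc40a1 in WT. The background was high: of all 11239 genes tested in WT, 24.7% were called (edgeR, adjusted p below 0.01 and more than a 2-fold change), 14.0% were called as higher in RPMs, and 46.6% had groups that did not overlap. In the libraries labelled Il1rl1-/-, 26.0% of 11437 genes were called, 14.5% as higher, and 49.4% had groups that did not overlap. The median log2 fold change of the members was 2.52 in WT and 2.72 in mice labelled Il1rl1-/-, beside a median of 0.00 over all genes in both. In bulk libraries, a change in the cells that express a gene and a change in transcripts per cell cannot be told apart. All 20 of these calls stood with DESeq2, with the mouse number as a block, and without any single library.

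**Figure D1:**
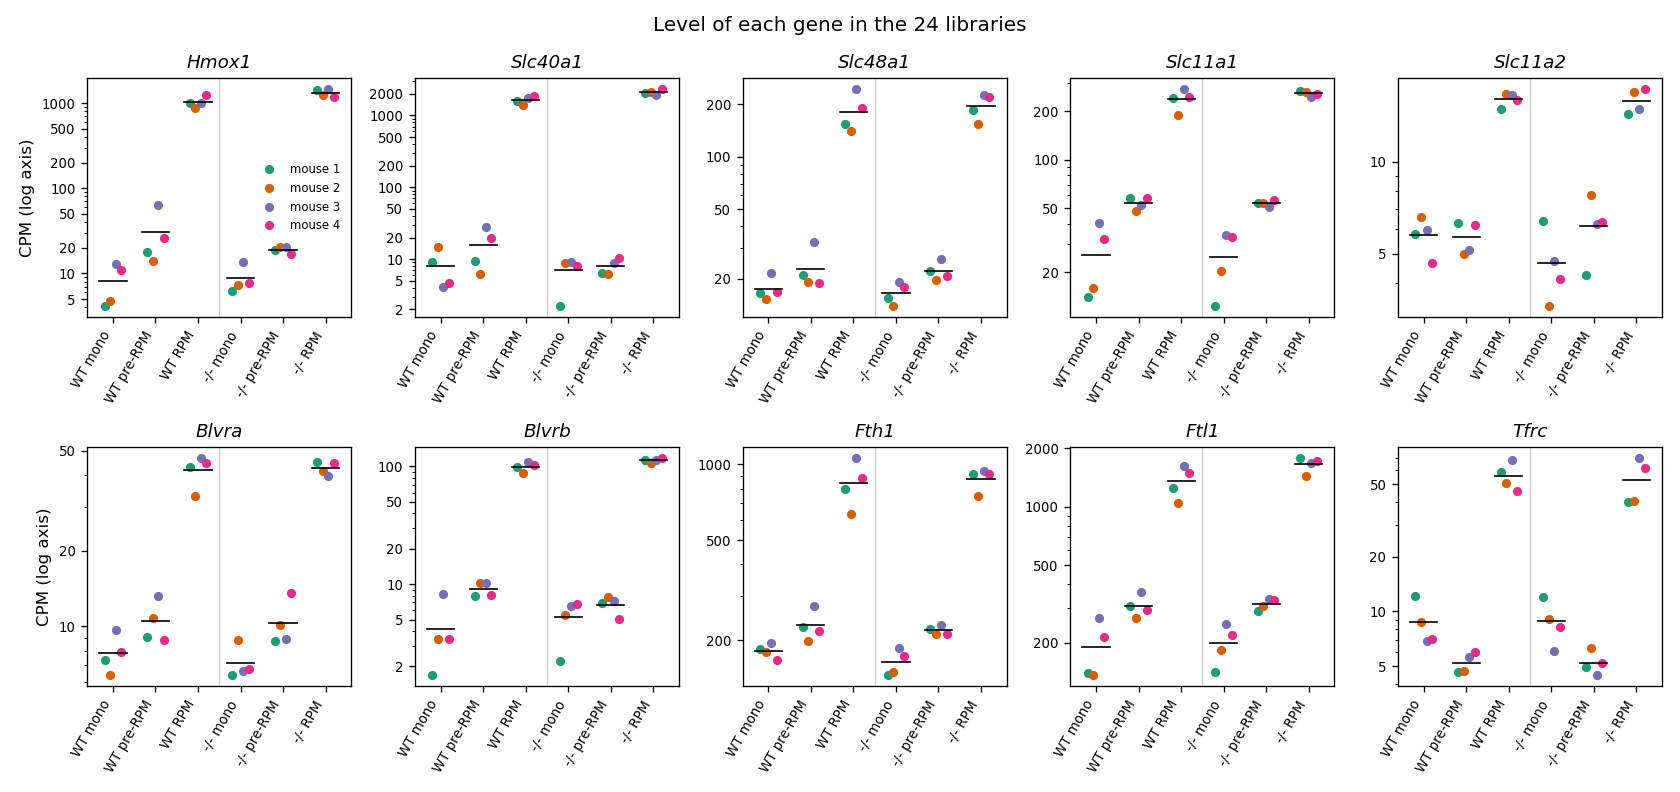
Level of each of the 10 genes in CPM (log axis, with its own range in each panel) by cell type, for WT mice left of the grey line and mice labelled Il1rl1-/- right of it. Each point is 1 library, coloured by mouse number, and bars are means of 4 libraries. In every panel the 4 RPM libraries of a genotype lie above its 4 pre-RPM and its 4 monocyte libraries.

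Heme enters the cytosol of a macrophage from the phagolysosome through HRG1, the heme transporter encoded by Slc48a1 (chromosome 15, from 97778520 to 97792692 of GRCm38, plus strand). In WT mice 1, 2, 3, and 4, Slc48a1 was at 16.5, 15.2, 21.6, and 16.8 CPM in monocytes, 20.9, 19.2, 32.3, and 18.8 CPM in pre-RPMs, and 154, 140, 244, and 190 CPM in RPMs. Its RPM libraries stood well above the others, which were close to each other apart from the pre-RPM library of mouse 3. Mice 1 to 4 labelled Il1rl1-/- had 22.2, 19.5, 25.9, and 20.7 CPM in pre-RPMs and 186, 155, 226, and 219 CPM in RPMs, so that mouse 2 was lowest and mouse 3 highest in both. The log2 fold change from pre-RPMs to RPMs was 2.95 (SE 0.21, edgeR adjusted p = 3.83e-08) in WT and 3.11 (SE 0.14, adjusted p = 4.96e-11) in the libraries labelled Il1rl1-/-.

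Hmox1, which encodes the inducible heme oxygenase that opens the heme ring into biliverdin, carbon monoxide, and iron, spanned a wide range (chromosome 8, from 75093621 to 75100589, plus strand). In mice 1 to 4 of the WT group, it was at 4.13, 4.79, 12.8, and 10.9 CPM in monocytes, at 17.9, 13.9, 64.2, and 26.4 CPM in pre-RPMs, and at 987, 884, 1006, and 1238 CPM in RPMs. Among mice labelled Il1rl1-/-, the values were 6.16, 7.36, 13.8, and 7.82 CPM in monocytes, 18.7, 20.7, 20.2, and 16.8 CPM in pre-RPMs, and 1417, 1230, 1450, and 1189 CPM in RPMs. Each cell type lay above the one before it without overlap in either genotype, as was also found for Slc11a1 and Fth1. From pre-RPMs to RPMs, the log2 fold change was 5.03 (SE 0.40, edgeR adjusted p = 1.15e-07) in WT and 6.06 (SE 0.13, adjusted p = 3.73e-14) in the libraries labelled Il1rl1-/-. Without the WT pre-RPM library of mouse 3, the highest of its group, the WT value was 5.67 (adjusted p = 6.51e-10).

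Biliverdin is reduced to bilirubin by biliverdin reductases, of which Blvra (chromosome 2, from 127070665 to 127097084, plus strand) encodes the A form and Blvrb (chromosome 7, from 27447978 to 27466144, plus strand) the B form, which also reduces flavins. Across WT mice 1 to 4, Blvra was at 9.07, 10.8, 13.2, and 8.80 CPM in pre-RPMs and at 43.0, 33.0, 46.7, and 44.6 CPM in RPMs. Blvrb was at 7.91, 10.2, 10.3, and 8.09 CPM in pre-RPMs and at 98.9, 88.4, 110, and 102 CPM in RPMs. In monocytes of these mice, Blvra was at 7.34, 6.39, 9.63, and 7.94 CPM and Blvrb at 1.68, 3.40, 8.26, and 3.45 CPM. Both reductases were thus a few CPM in monocytes and pre-RPMs, and Blvrb, which varied most in monocytes, was above Blvra in every RPM library. Mice 1 to 4 labelled Il1rl1-/- had 45.3, 41.5, 39.7, and 44.9 CPM of Blvra and 112, 106, 114, and 117 CPM of Blvrb in RPMs. The log2 fold change of Blvrb in WT, 3.40 (SE 0.13, edgeR adjusted p = 1.80e-10), was larger than that of Blvra, 1.95 (SE 0.16, adjusted p = 1.75e-07), a difference examined below as a ratio within each library.

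Ferroportin, encoded by Slc40a1 (chromosome 1, from 45908068 to 45926523, minus strand), is the known exporter of iron from the cell. In WT mice 1, 2, 3, and 4, Slc40a1 was at 9.03, 14.8, 4.13, and 4.64 CPM in monocytes, at 9.53, 6.30, 28.2, and 19.5 CPM in pre-RPMs, and at 1580, 1387, 1739, and 1880 CPM in RPMs. In the libraries labelled Il1rl1-/-, it was at 2.22, 8.83, 9.26, and 8.02 CPM in monocytes, at 6.38, 6.28, 8.92, and 10.4 CPM in pre-RPMs, and at 2045, 2149, 1952, and 2319 CPM in RPMs. Monocytes and pre-RPMs overlapped in both genotypes, whereas RPMs were above both. The log2 fold change from pre-RPMs to RPMs, 6.65 (SE 0.39, edgeR adjusted p = 5.07e-09) in WT and 7.99 (SE 0.18, adjusted p = 3.81e-14) in the libraries labelled Il1rl1-/-, was the highest of the 10 members in each genotype. Without the WT pre-RPM library of mouse 3, it was 7.065 in WT (adjusted p = 2.24e-09).

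Slc11a1 and Slc11a2 encode the divalent metal transporters NRAMP1, of the phagosome, and DMT1, of the endosome. Balb/c mice are known to carry an Slc11a1 allele with an amino acid change that disables the protein, so its transcript level does not stand for transport in this strain. In mice 1 to 4 of the WT group, Slc11a1 (chromosome 1, from 74375195 to 74386062, plus strand) was at 14.1, 16.0, 40.6, and 32.4 CPM in monocytes, 57.9, 48.0, 52.4, and 57.8 CPM in pre-RPMs, and 241, 189, 273, and 245 CPM in RPMs. Each cell type lay above the one before it without overlap. Slc11a2 (chromosome 15, from 100387898 to 100425072, minus strand) was at 6.28, 4.99, 5.14, and 6.19 CPM in pre-RPMs and at 14.8, 16.7, 16.6, and 15.9 CPM in RPMs of the same mice. In RPMs labelled Il1rl1-/-, Slc11a1 was at 268, 262, 245, and 254 CPM and Slc11a2 at 14.3, 16.8, 14.9, and 17.3 CPM, within or close to the range of WT. The log2 fold change of Slc11a2, 1.45 (SE 0.16, edgeR adjusted p = 4.39e-06), was the lowest of the 10 in WT, and that of Slc11a1 was 2.08 (SE 0.14, adjusted p = 1.59e-08).

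Ferritin, the shell that stores iron, is built of heavy chains, encoded by Fth1 (chromosome 19, from 9982703 to 9985092, plus strand), which oxidize iron, and light chains, encoded by Ftl1 (chromosome 7, from 45457944 to 45459884, minus strand), which help to form the mineral core. Across WT mice 1 to 4, Fth1 was at 185, 179, 195, and 167 CPM in monocytes, 225, 198, 274, and 218 CPM in pre-RPMs, and 801, 635, 1058, and 883 CPM in RPMs. Ftl1 was at 140, 136, 269, and 213 CPM in monocytes, 310, 267, 366, and 294 CPM in pre-RPMs, and 1252, 1044, 1631, and 1492 CPM in RPMs. RPMs of mice 1 to 4 labelled Il1rl1-/- had 914, 746, 942, and 911 CPM of Fth1 and 1781, 1439, 1677, and 1719 CPM of Ftl1. Both were thus abundant in all cell types and had smaller fold changes than Hmox1 or Slc40a1, 1.84 (SE 0.17, edgeR adjusted p = 5.49e-07) for Fth1 and 2.09 (SE 0.17, adjusted p = 1.44e-07) for Ftl1 on the log2 scale from WT pre-RPMs to RPMs. The genome holds processed copies of both genes, and read pairs that align to several places were not counted by the authors, so the levels of Fth1 and Ftl1 are uncertain and may be too low. The 11 other rows named Fth held 143 counts over the 24 libraries, 0.305% of those of Fth1, and the 3 other rows named Ftl held 1079 counts, 1.44% of those of Ftl1.

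Tfrc, which encodes the transferrin receptor that takes up iron from the blood (chromosome 16, from 32608920 to 32632794, plus strand), was the one member whose mean was lowest in pre-RPMs in both genotypes. In WT mice 1, 2, 3, and 4, it was at 12.1, 8.79, 6.88, and 7.04 CPM in monocytes, 4.65, 4.72, 5.63, and 5.95 CPM in pre-RPMs, and 58.0, 50.5, 67.8, and 46.2 CPM in RPMs. Among mice labelled Il1rl1-/-, it was at 12.1, 9.04, 6.03, and 8.23 CPM in monocytes, 4.96, 6.28, 4.46, and 5.22 CPM in pre-RPMs, and 39.9, 40.2, 69.5, and 61.8 CPM in RPMs. The log2 fold change from pre-RPMs to RPMs was 3.35 (SE 0.17, edgeR adjusted p = 9.95e-10) in WT and 3.25 (SE 0.22, adjusted p = 4.71e-09) in the libraries labelled Il1rl1-/-. The step from monocytes to pre-RPMs had a log2 fold change of −0.74 (SE 0.23, adjusted p = 0.0557) in WT and −0.72 (SE 0.23, adjusted p = 0.0527) in the libraries labelled Il1rl1-/-, neither of them past the threshold.

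At the earlier step, from monocytes to pre-RPMs, few members passed the test. In WT, 0 of 10 were called by edgeR, where 6 had an unadjusted p under 0.05 (31.9% of all genes did) and DESeq2 called 2, against a background of 3.57% of 11091 genes called. The groups did not overlap for Hmox1, Slc11a1, and Fth1, which were higher in pre-RPMs, and for Tfrc, which was lower, 4 of 10 members against 20.9% of all genes. In the libraries labelled Il1rl1-/-, Hmox1 and Slc11a1 were called as higher in pre-RPMs, 2 of 10 members against 4.85% of 11196 genes, or 0.974% counted as higher alone. Groups did not overlap for 5 of 10 members, Hmox1, Slc48a1, Slc11a1, Fth1, and Ftl1, against 22.4% of all genes. The log2 fold changes there were 1.12 (SE 0.22, edgeR adjusted p = 0.00521) for Hmox1 and 1.11 (SE 0.23, adjusted p = 0.00762) for Slc11a1. In WT they were 1.92 (SE 0.49, adjusted p = 0.0263) for Hmox1 and 1.08 (SE 0.29, adjusted p = 0.0300) for Slc11a1, with larger errors than in the other genotype. Without the WT pre-RPM library of mouse 3, that of Hmox1 was 1.265 (adjusted p = 0.0627). With the mouse number as a block, Hmox1 was called in WT also (log2 fold change 1.81, edgeR adjusted p = 5.60e-04). Without monocyte library 1 or 2, or any 1 pre-RPM library, neither gene was called in those labelled Il1rl1-/-. Without monocyte library 1, the log2 fold changes of Hmox1 and Slc11a1 were 0.98 and 0.88, below the fold change threshold. In the other of these fits they stayed past it, between 1.01 and 1.185. There the edgeR adjusted p, between 0.0128 and 0.0348, was above 0.01. Without WT monocyte 3, Hmox1, Slc11a1, and Blvrb were called in WT. The differences between genotypes in these changes were −0.81 (SE 0.60, adjusted p = 1) for Hmox1 and 0.02 (SE 0.41, adjusted p = 1) for Slc11a1, so a difference between WT and the other genotype was not shown.

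The libraries of monocytes were not alike in their makeup. The summed level of 7 NK cell markers (6 of them above 3 counts in a library) was 1517 and 1785 CPM in WT monocytes of mice 1 and 2 and 534 and 986 CPM in mice 3 and 4, and 1475, 1105, 474, and 757 CPM in mice 1 to 4 labelled Il1rl1-/-. In pre-RPMs it was between 12.9 and 133 CPM, with Klra8 at 0. Markers of T cells (7 genes) split the monocytes likewise, at 98.7, 137, 48.6, and 75.2 CPM in WT mice 1 to 4 and 126, 91.0, 45.4, and 53.7 CPM in those labelled Il1rl1-/-, as did 7 basophil and mast cell markers, at 71.3, 56.9, 21.1, and 25.8 CPM and 36.0, 27.1, 18.5, and 11.3 CPM. Markers of B and plasma cells (8 genes) split in the monocytes labelled Il1rl1-/-, at 1177, 1758, 729, and 347 CPM, and overlapped between these pairs of mice in WT. The 8 monocyte markers were instead higher in mice 3 and 4, at 761, 553, 1268, and 1002 CPM in WT mice 1 to 4. In those labelled Il1rl1-/- they were at 724, 907, 1334, and 1136 CPM. The 11 RPM markers did likewise, at 58.0, 46.1, 125, and 86.4 CPM in WT and 38.4, 57.4, 106, and 98.3 CPM in those labelled Il1rl1-/-. Monocytes of mice 1 and 2 had less Slc11a1 (from 12.3 to 20.4 CPM) than those of mice 3 and 4 (from 32.4 to 40.6 CPM), and the same split without overlap was seen for Hmox1, Slc48a1, and Ftl1, and within each genotype for Blvrb. Tfrc split the other way, from 8.79 to 12.1 CPM in mice 1 and 2 and from 6.03 to 8.23 CPM in mice 3 and 4. How many of all genes split between these mice was not counted. Without the monocytes of mice 1 and 2, 0 members were called from monocytes to pre-RPMs in either genotype, with Hmox1 at 1.37 (edgeR adjusted p = 0.111) in WT and 0.82 (adjusted p = 0.0248) in the libraries labelled Il1rl1-/- on the log2 scale. Slc11a1 was then at 0.58 (adjusted p = 0.0340) in WT and 0.68 (adjusted p = 7.46e-04) in the libraries labelled Il1rl1-/-, below the fold change threshold. Slc40a1 in WT went from 0.96 with all libraries to 1.84 (adjusted p = 0.0360). The part of other cells in these differences was not tested.

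**Figure D2:**
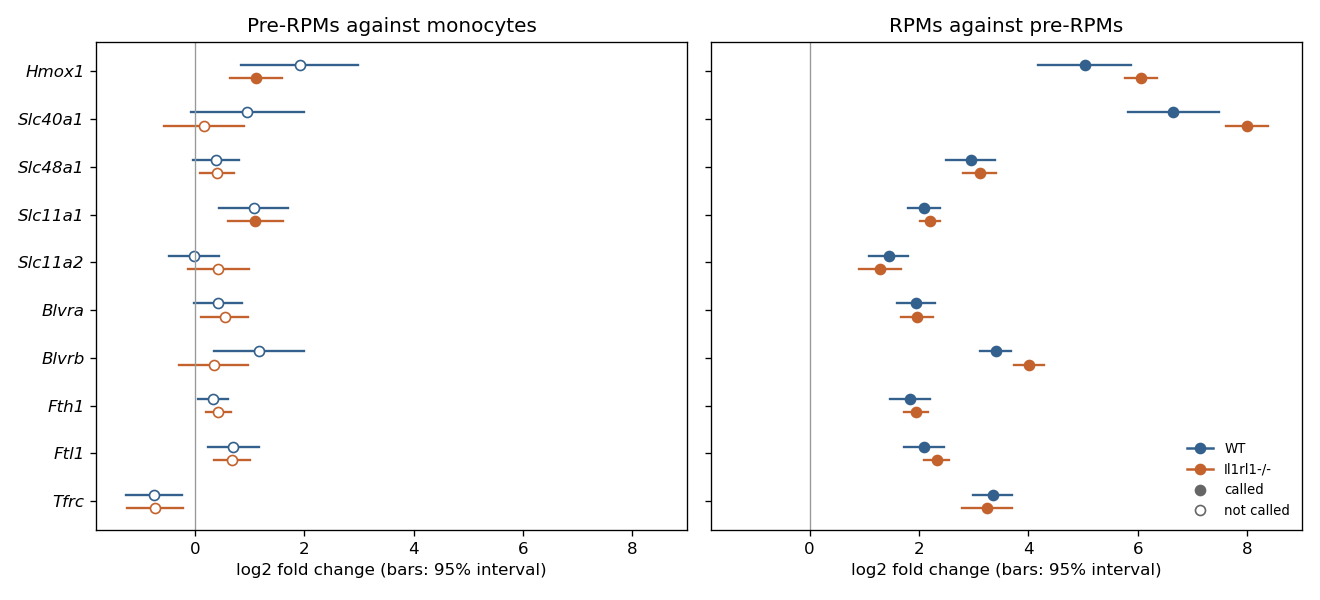
Log2 fold change of each gene from monocytes to pre-RPMs (left) and from pre-RPMs to RPMs (right), for WT (blue) and libraries labelled Il1rl1-/- (orange), from edgeR with 4 libraries a group and 95% intervals as bars. Filled circles were called (adjusted p below 0.01 and more than a 2-fold change), which holds for all 20 values on the right and for Hmox1 and Slc11a1 in the libraries labelled Il1rl1-/- on the left.

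Over the whole path from monocytes to RPMs, all 10 members were called as higher in both genotypes, against 13.4% of 11607 genes in WT (23.9% in either direction) and 14.3% of 11633 genes in the libraries labelled Il1rl1-/- (25.9% in either direction). Groups did not overlap for any of the 10, against 44.6% of all genes in WT and 46.8% in those labelled Il1rl1-/-. In WT, the rise was 199-fold for Slc40a1, 125-fold for Hmox1, 24.5-fold for Blvrb, 10.2-fold for Slc48a1, 9.09-fold for Slc11a1, 7.05-fold for Ftl1, 6.24-fold for Tfrc, 5.27-fold for Blvra, 4.59-fold for Fth1, and 2.75-fold for Slc11a2. These comparisons share their RPM libraries with those against pre-RPMs. Without the RPM libraries of mice 3 and 4, or without the monocytes of mice 1 and 2, all 10 were still called in each genotype.

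To compare genes with each other, levels were divided by exon length and are given as CPM per kilobase. This length joins all annotated exons of a gene and can exceed that of the transcript expressed. It was 9000 bases for Slc40a1 and 1751 for Hmox1, whose mean levels in WT RPMs before division were 1646 and 1029 CPM. The order of genes below rests on these lengths and may not be that of transcript abundance. In WT monocytes, Fth1 (209 ± 13.3) and Ftl1 (141 ± 47.7, mean ± SD, n = 4) led and overlapped, and the next gene, Slc11a1, was at 6.95 ± 3.47 (SD, n = 4). In WT RPMs, the order was Ftl1 (1011 ± 194), Fth1 (974 ± 203), and Hmox1 (588 ± 85.3, SD, n = 4), followed by Slc40a1 at 183 ± 23.5 (SD, n = 4). Slc48a1 at 66.1 ± 16.9 and Slc11a1 at 63.9 ± 9.52 (SD, n = 4) overlapped, and Blvrb (35.9 ± 3.16), Blvra (17.1 ± 2.49), Tfrc (9.0 ± 1.54), and Slc11a2 (2.52 ± 0.134, SD, n = 4) came last, each separate from its neighbours. Hmox1 was thus at rank 5 in WT monocytes and rank 3 in RPMs, and Slc40a1, level with Slc11a2 at the bottom in monocytes, was at rank 4 in RPMs. The same order of RPMs was found in the libraries labelled Il1rl1-/-. As a share of the counts outside Gm42418, a row that took between 24.4% and 38.8% of each library, the 10 members went from 0.0734% ± 0.0103 in WT monocytes to 0.0930% ± 0.0139 in pre-RPMs and 0.770% ± 0.0856 in RPMs (SD, n = 4). The ferritin chains held between 80.6% and 82.1% of the counts of the members in WT monocytes, and between 37.6% and 43.4% in WT RPMs.

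Ratios of related genes within a library do not depend on the scaling between libraries. The log2 ratio of Fth1 to Ftl1, per kilobase, was 0.63 ± 0.47 in WT monocytes, 0.20 ± 0.02 in pre-RPMs, and −0.06 ± 0.06 in RPMs (SD, n = 4). Among mice labelled Il1rl1-/-, it was 0.37 ± 0.21, 0.10 ± 0.10, and −0.28 ± 0.06 (SD, n = 4) in the same order, so the ratio fell from pre-RPMs to RPMs in 4 of 4 mice of each genotype. In RPMs it was lower in those labelled Il1rl1-/- than in WT, without overlap. The ratio of Blvrb to Blvra went from −0.37 ± 0.13 in WT pre-RPMs to 1.07 ± 0.11 in WT RPMs (SD, n = 4), and from −0.80 ± 0.54 to 1.20 ± 0.09 in the libraries labelled Il1rl1-/- (SD, n = 4). Per kilobase of annotated exon, Blvra was thus above Blvrb before the last step and below it after, in 4 of 4 mice of each genotype. The sign before that step depends on the lengths used, 2446 bases for Blvra and 2782 for Blvrb. In the monocyte library of mouse 4 labelled Il1rl1-/-, for example, both genes had 33 counts. The shift of the ratio between cell types does not depend on these lengths, but which transcript was more abundant in monocytes and pre-RPMs was not shown. The ratio of Slc11a1 to Slc11a2 went from 2.79 ± 0.86 in WT monocytes to 4.01 ± 0.06 in pre-RPMs and 4.65 ± 0.26 in RPMs (SD, n = 4). For each of the 3 ratios, the exact 2-sided permutation test of pre-RPMs against RPMs gave p = 0.0286 in both genotypes, as did that of Fth1 to Ftl1 between genotypes in RPMs, the smallest that 4 against 4 libraries allow. Of the 27 tests of ratios made, 14 had this p, which became an adjusted p of 0.0551, so no ratio passed 0.05 after correction. Since p could not be smaller, that outcome is set by how many tests reach it and not by the size of a change.

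**Figure D3:**
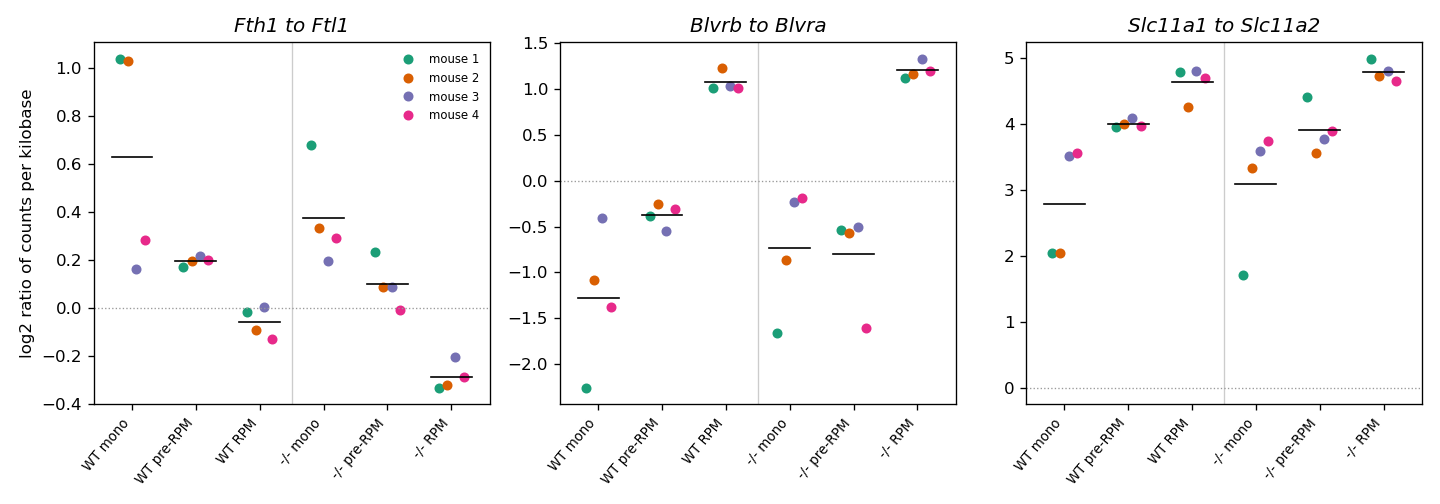
Log2 ratio of counts per kilobase of Fth1 to Ftl1, Blvrb to Blvra, and Slc11a1 to Slc11a2 within each library (0.5 counts added to each gene), by cell type and genotype. Points are libraries, coloured by mouse number, bars are means of 4, and the dotted line marks equal counts per kilobase, which depends on the exon lengths used. The ratio of Blvrb to Blvra is below 0 in all 16 monocyte and pre-RPM libraries and above 0 in all 8 RPM libraries.

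Between genotypes, 0 of 10 members were called in any cell type by edgeR at an adjusted p under 0.05, and DESeq2 called none. The background was low as well, with 0.0614% of 11405 genes called for monocytes, 0.552% of 10698 for pre-RPMs, and 0.233% of 11150 for RPMs. At an unadjusted p under 0.05, monocytes had 0 members (3.595% of all genes), pre-RPMs 2 (8.80%), and RPMs also 2 (7.27%). With every gene of at least 1 count kept in the fit, edgeR called Hmox1 and Slc40a1 in pre-RPMs. Groups did not overlap for 0 of 10 members in monocytes, against 2.32% of all genes, for Blvrb in pre-RPMs (lower in those labelled Il1rl1-/-), against 4.96%, and for Slc40a1 in RPMs, against 4.37%. In monocytes, the log2 fold changes lay between −0.31 and 0.37, in pre-RPMs between −0.997 and 0.14, and in RPMs between −0.08 and 0.36. A call that misses the threshold does not show that the genotypes were alike. For Fth1, the 95% interval of the log2 fold change in RPMs was from −0.27 to 0.37, and for Tfrc from −0.48 to 0.32, so larger differences in either direction lie outside these intervals. For Hmox1 in monocytes, the interval from −0.78 to 1.00 leaves room for a 2-fold difference.

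**Figure D4:**
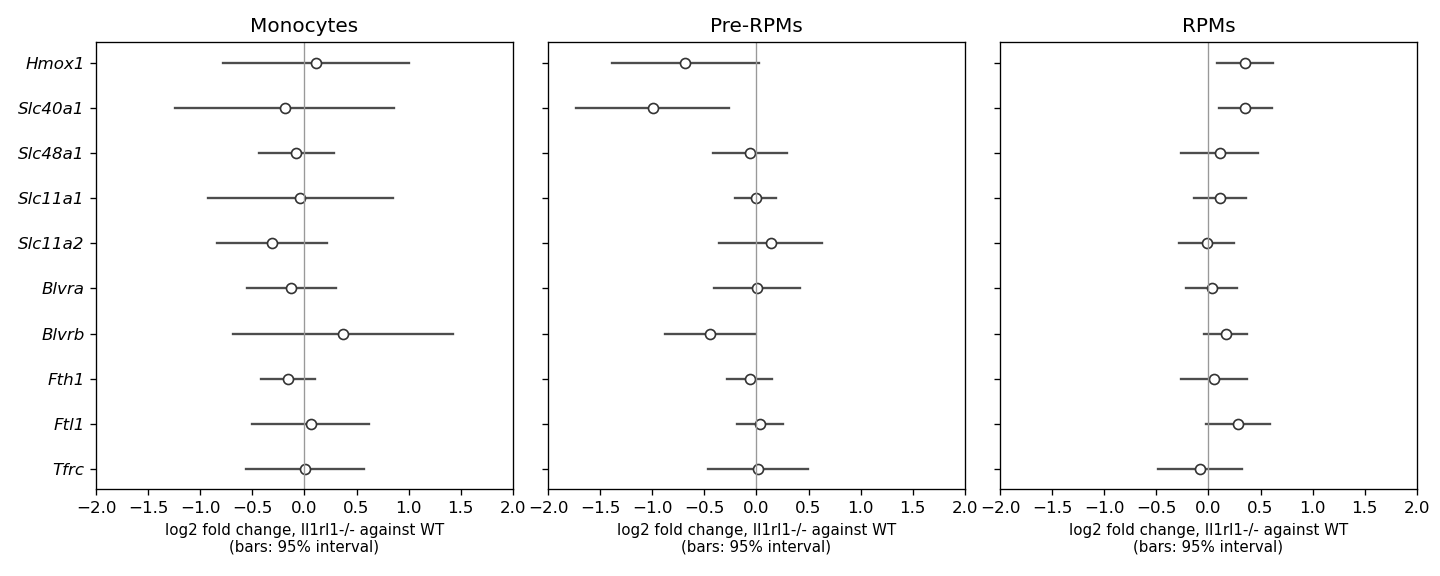
Log2 fold change of each gene in the libraries labelled Il1rl1-/- against WT in monocytes, pre-RPMs, and RPMs, from edgeR with 4 libraries a group and 95% intervals as bars. Open circles mark that no value was called at an adjusted p under 0.05. The intervals of Slc40a1 and Blvrb lie below 0 in pre-RPMs, and those of Slc40a1 and Hmox1 above 0 in RPMs, before correction over all genes.

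Slc40a1 had the widest estimate of a difference between genotypes, negative in pre-RPMs and positive in RPMs, with an edgeR adjusted p above 0.05 in both. In pre-RPMs its mean was 15.9 ± 9.94 CPM in WT and 8.0 ± 2.03 CPM in the libraries labelled Il1rl1-/- (SD, n = 4), with groups that overlapped. Its log2 fold change was −0.997 (SE 0.35, edgeR adjusted p = 0.347). In RPMs its mean was 1646 ± 212 and 2116 ± 157 CPM (SD, n = 4), and there the 4 libraries labelled Il1rl1-/- lay above the 4 WT libraries. Its log2 fold change there was 0.36 (SE 0.12, edgeR adjusted p = 0.517). The rise from pre-RPMs to RPMs was 1.36 larger on the log2 scale in the libraries labelled Il1rl1-/- (SE 0.40, edgeR adjusted p = 0.297). This interaction was called for 0 of 10 members, against 0.107% of 12150 genes, and for Hmox1 and Slc40a1 with every gene of at least 1 count kept. For the steps from monocytes it was called for 0 of 10 members as well, against 0% of 11960 genes for pre-RPMs (454 at an unadjusted p under 0.05, and 0 called by DESeq2) and 0.0318% of 12592 for RPMs.

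Hmox1 and Blvrb also had negative estimates in pre-RPMs and positive ones in RPMs. For Hmox1 in pre-RPMs, the log2 fold change was −0.69 (SE 0.33, edgeR adjusted p = 0.586), and without the WT library of mouse 3 it was −0.036 (adjusted p = 0.972). In RPMs, Hmox1 had a mean of 1029 ± 149 CPM in WT and 1321 ± 131 CPM in those labelled Il1rl1-/- (SD, n = 4), with 1 overlapping WT library, and its log2 fold change was 0.35 (SE 0.12, edgeR adjusted p = 0.531). The rise of Hmox1 from pre-RPMs to RPMs was 1.05 larger in the libraries labelled Il1rl1-/- (SE 0.41, edgeR adjusted p = 0.534), and that of Blvrb was 0.62 larger (SE 0.19, adjusted p = 0.313). In pre-RPMs, Blvrb was at 6.85, 7.80, 7.14, and 5.03 CPM in mice 1 to 4 labelled Il1rl1-/-, all below the WT values given above, with a log2 fold change of −0.45 (SE 0.20, adjusted p = 0.549), and in RPMs it was 0.17 (SE 0.09, adjusted p = 0.757). These 3 interactions were those with an unadjusted p under 0.05, 3 of 10 members against 7.52% of all genes, and that of Hmox1 rested on 1 library. The WT pre-RPM library of mouse 3 had 64.2 CPM of Hmox1, against 13.9 to 26.4 CPM in the other WT mice, and it also had the highest Slc40a1 and Slc48a1 of its group. In that library, the RPM markers summed to 294 CPM (from 142 to 166 CPM in the other 3) and 11 erythroid markers, such as the globin genes, to 588 CPM (from 13.9 to 93.3 CPM, with 9 of the 11 above 3 counts in a WT pre-RPM library). The 7 basophil and mast cell markers summed to 57.8 CPM there, against 11.3 to 28.1 CPM. Its Cd163, the hemoglobin receptor, was at 15.4 CPM, against 1.16 to 3.57 CPM in the other 3. Without it, the interaction was 0.40 for Hmox1 (edgeR adjusted p = 0.756) and 0.94 for Slc40a1 (adjusted p = 0.517). The difference of Slc40a1 between genotypes in pre-RPMs was then −0.57 (edgeR adjusted p = 0.553) and had an unadjusted p above 0.05. The part of RPMs, erythroid cells, or basophils in that library was not tested.

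RPM libraries also held erythroid transcripts, in amounts that followed the mouse number. The 11 erythroid markers summed to 1965, 1381, 22537, and 9524 CPM in WT RPMs of mice 1, 2, 3, and 4, and to 2710, 876, 10778, and 14627 CPM in those labelled Il1rl1-/-, so mice 3 and 4 stood above mice 1 and 2 in both genotypes. Lymphoid markers split these libraries the other way, at lower levels. Those of NK cells summed to 29.2, 40.3, 10.1, and 15.0 CPM in WT and 18.6, 18.1, 7.67, and 8.52 CPM in those labelled Il1rl1-/-. Those of B and plasma cells summed to 200, 265, 94.6, and 91.4 CPM and to 113, 65.9, 37.5, and 43.2 CPM, and T cell markers split likewise. Slc48a1 was between 140 and 186 CPM in RPMs of mice 1 and 2 and between 190 and 244 CPM in mice 3 and 4. Within WT, 8 of 10 members were higher in mice 3 and 4 without overlap, all but Slc11a2 and Tfrc. Within those labelled Il1rl1-/-, 3 were (Slc48a1, Blvrb, and Tfrc), Slc11a1 was lower, and 6 overlapped. Slc48a1 and Blvrb thus split in both genotypes. The share of all genes with such a split was not counted, so these counts do not set the members apart from other genes. Fth1 ranged from 635 to 914 CPM in mice 1 and 2 and from 883 to 1058 CPM in mice 3 and 4. Hmox1 ranged from 884 to 1417 and from 1006 to 1450 CPM, and Slc40a1 from 1387 to 2149 and from 1739 to 2319 CPM, with overlap when the genotypes were pooled. Without the RPMs of mice 3 and 4, the log2 fold change of Slc48a1 from pre-RPMs to RPMs was 2.635 (edgeR adjusted p = 6.71e-09) in WT, and that of Tfrc in the libraries labelled Il1rl1-/- was 2.85 (adjusted p = 2.82e-10). Since the erythroid sums fall into separate clusters of 4 libraries, no correlation is given. The part of erythroid RNA or of other cells in these levels was not tested.

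**Figure D5:**
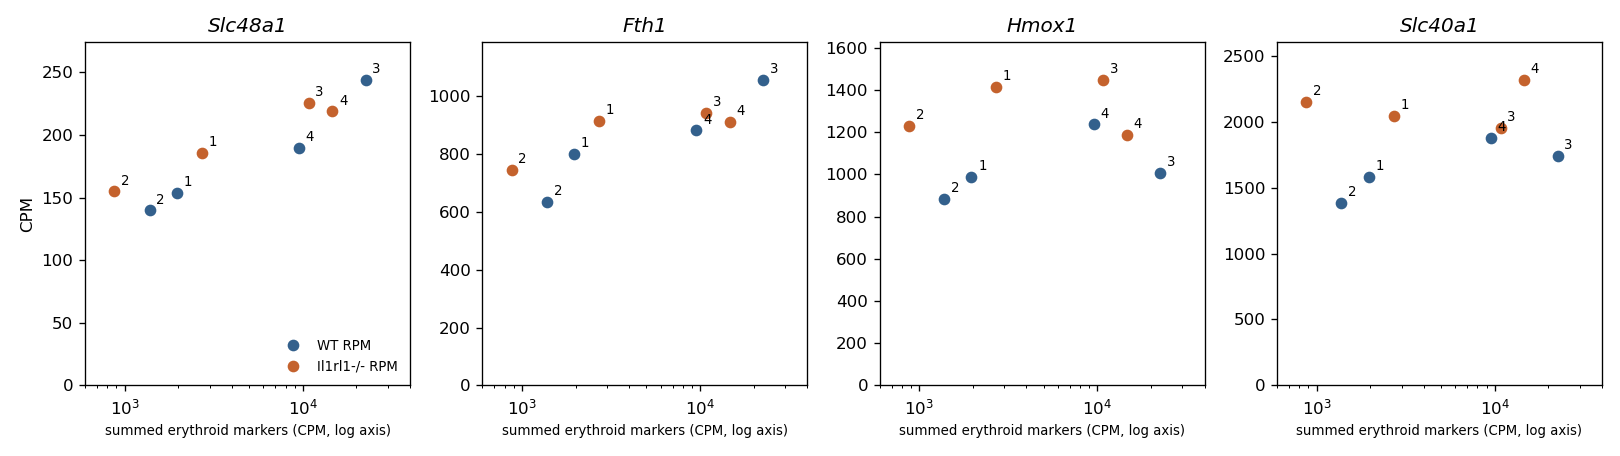
Level of Slc48a1, Fth1, Hmox1, and Slc40a1 in CPM against the summed CPM of 11 erythroid markers (log axis) in the 8 RPM libraries, WT in blue and Il1rl1-/- by label in orange, with mouse numbers beside the points. Mice 3 and 4 lie to the right in both genotypes, and for Slc48a1 they also lie above mice 1 and 2.

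Among other genes of iron handling, a list of 23 was examined, of which 17 were tested from pre-RPMs to RPMs in WT. There, 6 were called as higher and 2 as lower, with a median log2 fold change of 0.43 over the list (24.7% of all genes were called and 14.0% as higher, with a median of 0.00). In the libraries labelled Il1rl1-/-, 7 were called as higher, the same 6 and Slc22a17, and the same 2 as lower. Ncoa4, the receptor that delivers ferritin for degradation, rose from 14.3 ± 1.92 to 76.5 ± 33.5 CPM (SD, n = 4), by 2.37 on the log2 scale (SE 0.26, edgeR adjusted p = 3.41e-06). Slc39a8, a metal importer, rose by 3.83 (SE 0.30, adjusted p = 1.12e-07), and Trf, which encodes transferrin, by 2.02 (SE 0.14, adjusted p = 2.79e-08). Slc25a37, the mitochondrial iron importer mitoferrin 1, is also an erythroid gene. It rose by 3.74 (SE 0.65, edgeR adjusted p = 2.35e-04) and ranged from 71.5 to 635 CPM among WT RPMs. Slc39a14, a metal importer close to Slc39a8, and Hfe, a partner of the transferrin receptor, were the other genes called as higher. Slc25a37 was high in the same WT RPM libraries, mice 3 and 4, as the erythroid sums, whose part in it was not tested. Lcn2, which binds bacterial siderophores and is abundant in neutrophils, went from 98.5 ± 53.6 CPM in WT monocytes to 6.64 ± 4.38 CPM in pre-RPMs (SD, n = 4). That fall was the one call of this list from monocytes to pre-RPMs (log2 fold change −3.88, SE 0.50, edgeR adjusted p = 7.39e-04), and the summed level of 10 neutrophil markers fell with it, from between 771 and 2466 to between 183 and 264 CPM. Lcn2 fell again to RPMs by 3.40 on the log2 scale (SE 0.56, adjusted p = 1.44e-04).

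Aco1 and Ireb2, whose products bind the iron-responsive element, were examined as regulators. From WT pre-RPMs to RPMs, Aco1 had a log2 fold change of 0.77 (SE 0.16, edgeR adjusted p = 0.00132) and Ireb2 of −0.50 (SE 0.15, adjusted p = 0.0111), neither of them past both thresholds. Fbxl5, which encodes the iron sensor that marks IRP2 for degradation, fell by 1.07 (SE 0.11, adjusted p = 2.31e-06). From WT monocytes to RPMs, Aco1 rose by 1.20 (SE 0.17, edgeR adjusted p = 1.66e-04), among 7 genes called as higher and 1 as lower of the 17 tested, against 23.9% of all genes called and 13.4% as higher.

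Of 15 genes of heme and hemoglobin handling, 13 were tested from WT pre-RPMs to RPMs, with 4 called as higher, 2 as lower, and a median log2 fold change of 0.08, beside the same 24.7% and 14.0% of all genes. In the libraries labelled Il1rl1-/-, Cd163 and Spic were called as higher and Hp and Bach1 as lower. Lrp1 (0.95, edgeR adjusted p = 1.29e-06) and Abcg2 (0.85, adjusted p = 0.0135) were not called there, and their interactions were not called either. Cd163, the receptor for hemoglobin bound to haptoglobin, rose from 5.70 ± 6.57 to 369 ± 52.2 CPM (SD, n = 4), by 5.97 on the log2 scale (SE 0.47, edgeR adjusted p = 1.18e-07). Lrp1, a receptor for heme bound to hemopexin among many other ligands, rose by 1.16 (SE 0.14, adjusted p = 9.19e-06), and Abcg2, a porphyrin and drug exporter, by 1.15 (SE 0.24, adjusted p = 0.00125). Spic, which encodes the transcription factor required for RPMs, was called at both steps, with log2 fold changes of 2.35 (SE 0.37, edgeR adjusted p = 0.00229) and 4.52 (SE 0.18, adjusted p = 1.88e-10). Hp, which encodes haptoglobin, fell by 5.57 (SE 0.24, edgeR adjusted p = 3.88e-10). Bach1, a repressor of Hmox1, Spic, and the ferritin genes that heme releases from DNA, was at 89.2 ± 41.4 CPM in monocytes, 155 ± 11.4 CPM in pre-RPMs, and 28.1 ± 2.71 CPM in RPMs of WT mice (SD, n = 4). It fell by 2.503 from pre-RPMs to RPMs (SE 0.11, edgeR adjusted p = 5.17e-10). Nfe2l2, whose product NRF2 activates Hmox1 and Slc40a1 at the same DNA elements that BACH1 binds, had a log2 fold change of −0.50 (SE 0.15, adjusted p = 0.0119) and was not called. Between genotypes, 0 genes of either list were called in any cell type.

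The antioxidant response element, searched as TGACNNNGC on both strands, was found in the promoter of Blvra, 49 bases before its start, in RefSeq promoter windows (GRCm38) that were at hand for 6 of the 10 members, and in 12.4% of 32851 promoters. The PU.1 and SPIC core, searched as GAGGAA, was found in that of Slc11a1, and in 28.3% of all promoters. An E-box (CACGTG) and a GATA motif (AGATAA), held by 7.15% and 11.2% of all promoters, had no match in these windows. A match is a description of these letters and not of binding.

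Over the 24 libraries, the 45 pairs of members had Pearson correlations of log2 CPM between 0.779 and 0.995 (median 0.964). With the mean of each group taken away, they ranged from −0.585 to 0.885 (median 0.288), so most of the likeness lay between the groups. The genes whose pattern over the 24 libraries was most like that of Hmox1, among 11648 others, were Fcna (r = 0.995), Abcc3 (r = 0.994), and Axl (r = 0.994). For Slc40a1 they were Stab2 (r = 0.994), Hcar2 (r = 0.994), and Frmd4b (r = 0.992), for Slc48a1 Mrc1 (r = 0.992), Cfp (r = 0.991), and Glul (r = 0.991), and for Ftl1 Ctsb (r = 0.995), Fcgrt (r = 0.994), and Lgmn (r = 0.993). The closest genes were Wdfy3 for Slc11a1 (r = 0.992), Cd86 for Blvrb (r = 0.989), Slc7a8 for Fth1 (r = 0.988), Maf for Blvra (r = 0.987), and Gbp8 for Tfrc (r = 0.982). Slc11a2, at low counts, had the weakest match, Etv5 (r = 0.965). These correlations rest on the same 6 groups and are given as a description.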

How the data were processed

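RNA was made into libraries with a stranded total RNA kit, 1 per cell type and mouse, and sequenced by the authors. The deposited values are counts of read pairs per gene, made by the authors with STAR 2.5.1 and featureCounts 1.6.2 (GRCm38, Ensembl release 95), over exons joined by gene name, by strand, without pairs that align to several places, and neither normalized nor filtered. The submitters' processing notes list cutadapt 2.8.

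Pairs of groups were fitted with edgeR 4.0.16 under R 4.3.3, by the quasi-likelihood test with TMM factors and filterByExpr, and p-values were adjusted by Benjamini-Hochberg over every gene tested. Cell types were called below 0.01 with more than a 2-fold change, genotypes and interactions below 0.05. The SE and 95% interval were derived from the F statistic. TMM factors ranged from 0.798 to 1.38. Ratios added 0.5 counts and used exact permutation tests in Python 3.11.15 (NumPy 2.4.6, pandas 2.3.3, SciPy 1.17.1). Figures used matplotlib 3.10.9. Tests were checked on simulated data. Alternatives were DESeq2 1.42.0, RLE factors, other count filters (at least 1 count, at least 10 in every library), a single fit of 24 libraries, a replicate block, and leaving out libraries (those that leave out 2 mice together were chosen after the data were seen). Intervals and floors cover counting error or the spread of these libraries only.

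Libraries of a genotype with the same mouse number carry the label of the same mouse and were taken as paired in the block. Between genotypes the numbers mark different animals but the same i5 index, and the block used the number in each cell type, pre-RPMs included. Deviations from group means of libraries with the same number correlated at 0.118 to 0.452 in monocytes, 0.149 to 0.182 in RPMs, and 0.0452 to 0.155 in pre-RPMs. Within a genotype, they correlated at −0.0394 to 0.116 between monocytes and pre-RPMs of WT. In the libraries labelled Il1rl1-/-, that range was 0.126 to 0.306. These values do not decide which numbers pair. The members and gene lists were chosen with earlier results of these data known. Named are all members, up to 4 called genes with the largest change per list and WT comparison of cell types, 6 regulators, and the 3 genes most like each member (mean log2 CPM of at least 1), of which some are left out for length. Exons of Slc48a1 and Hdac7 overlap by 29 bases on opposite strands. Promoter sequences of Hmox1, Slc40a1, Slc48a1, and Slc11a2 were not used here.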

Additional observations from a re-analysis of the deposited data

Results flagged for a closer look

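Of 60 groups of 4 libraries, 1 for each member, cell type, and genotype, 3 had a library whose gap to the nearest other exceeded Dixon's 95% critical value, about the 1 in 20 that chance gives. Slc48a1 was at 32.3 CPM in the WT pre-RPM library of mouse 3, against 18.8 to 20.9 CPM in the other 3. Blvra was at 8.83 CPM in the monocyte library labelled Il1rl1-/- of mouse 2, against 6.40 to 6.79 CPM. Fth1 was at 746 CPM in the RPM library labelled Il1rl1-/- of mouse 2, against 911 to 942 CPM.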

How the results depend on the processing

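All 10 members were called from pre-RPMs to RPMs and from monocytes to RPMs, in both genotypes, under each alternative run, except that 2 of 10 were not tested from monocytes to RPMs labelled Il1rl1-/- when every library had to reach 10 counts. RLE factors left all 60 group levels within 1 SD. From WT monocytes to pre-RPMs, where 0 members were called, DESeq2 called 2 (Hmox1, Slc11a1), the filter of at least 1 count 3, the fit of 24 libraries 3 (both Hmox1, Slc11a1, and Blvrb), the replicate block 1 (Hmox1), and leaving out a library 0 to 3, the 3 without monocyte 3. In the libraries labelled Il1rl1-/-, where 2 were called, the fit of 24 libraries called 1 (Slc11a1), leaving out a library 0 to 2, and leaving out the monocytes of mice 1 and 2, chosen after the data were seen, 0. Both calls were lost without monocyte 1 or 2 or any 1 pre-RPM library, and that of Hmox1 without monocyte 4. Between genotypes, the filter of at least 1 count called 2 members (Hmox1 and Slc40a1) in pre-RPMs and the same 2 in the interaction of pre-RPMs to RPMs. Without WT monocyte 3 or the pre-RPM library 1 labelled Il1rl1-/-, the ratios with an adjusted p under 0.05 went from 0 to 16. The adjusted p of the ratios is set by how many tests reach the smallest p possible, so that change does not measure a larger difference.

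Signs of values not called turned for many results. Of the 10 values between genotypes in each cell type, 6 (monocytes), 7 (pre-RPMs), and 4 (RPMs) took both signs over the alternatives, such as Slc40a1 in monocytes (from −0.39 to 0.96) and Tfrc in RPMs (from −0.45 to 0.042). Signs also turned for Slc11a2 from WT monocytes to pre-RPMs (from −0.11 to 0.055 when a library was left out, 0.11 without the monocytes of mice 1 and 2), for Slc40a1 in the same step labelled Il1rl1-/- (from −0.13 to 0.31, and −0.12), and for the log2 ratios of Blvrb to Blvra in that step (from −0.37 to 0.20) and of Slc11a1 to Slc11a2 between genotypes in pre-RPMs (from −0.27 to 0.017). The replicate block changed no other call of a member. Over all genes, it moved calls between genotypes from 7 to 27 in monocytes, 59 to 145 in pre-RPMs, and 26 to 81 in RPMs, and the interactions from 13 to 36 (pre-RPMs to RPMs) and 4 to 21 (monocytes to RPMs). Slc40a1 in pre-RPMs had an adjusted p of 0.0646 with the block. The filter of at least 1 count gave 139, 265, and 272 calls between genotypes, DESeq2 26, 70, and 60, and the fit of 24 libraries 16, 17, and 26. For the interaction of pre-RPMs to RPMs, these settings gave 224, 36, and 3. From WT monocytes to pre-RPMs, 396 genes were called, against 694 (DESeq2), 1094 (at least 1 count), 217 (at least 10 counts), and 772 (24 libraries), and in those labelled Il1rl1-/- 543 against 1060 with at least 1 and 264 with at least 10 counts. From pre-RPMs to RPMs, the filter of 10 counts gave 1467 against 2776 calls in WT and 1542 against 2973 in those labelled Il1rl1-/-, and from monocytes to RPMs 1470 against 2769 and 1536 against 3009. At this depth, genes of a few CPM, such as Slc11a2 and Tfrc in pre-RPMs (from 15 to 46 counts a library), limit what could be shown.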
